A study of Mus musculus with 18 samples.

Results

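The 6 genes Lyve1, Cd163, Folr2, Ccl8, Stab1 and Mrc1 were followed as a set across mouse peritoneal macrophages, 6 of the 23511 genes in the count table. Each was found by its symbol, and all 6 passed the filter on low counts. They were selected on measured values: their levels in Tim-4high macrophages of mice given anti-Tim-4 lay above those in both isotype populations. The values of those 9 libraries, and of any comparison that includes one of them, are therefore given as a description with no test. For the 6 genes, tests were kept for the comparisons made only of libraries the choice had not used. Lists of other genes were tested in 5 comparisons, 3 of which use the libraries of the choice.

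Bulk RNA sequencing covered macrophages sorted from the peritoneal cavity as Tim-4low or Tim-4high. Tim-4, encoded by Timd4, is a phosphatidylserine receptor of tissue-resident macrophages. There were 6 groups of 3 libraries, 18 in all: both populations from mice with no tumor and no treatment, from mice bearing the MC38-LG tumor in the peritoneal cavity and treated with isotype, and from mice bearing that tumor and treated with anti-Tim-4. Anti-Tim-4 was given 7 days after tumor challenge, cells were collected on day 10, and the no-tumor mice were collected on the same day as the others. MC38 is a mouse colon carcinoma line. The labels give no mouse strain or age and no day for isotype. Tumor-bearing mice had both a tumor and an antibody and no-tumor mice had neither, so tumor and antibody cannot be told apart in any comparison with the no-tumor groups. Nothing states that a group's 3 libraries are separate animals. Each p-value therefore reflects the spread among the libraries at hand, and that spread may be technical. Library totals lay between 24530070 and 34110392 estimated counts.

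Macrophages that carry these genes are a resident type found along vessels, in connective tissue and in body cavities. They take up debris and modified proteins through scavenger receptors. Lyve1 encodes a receptor for the matrix sugar hyaluronan, and Stab1 encodes stabilin-1, a scavenger receptor that also binds apoptotic cells. Cd163 encodes the receptor that clears haemoglobin bound to haptoglobin, Mrc1 encodes the mannose receptor CD206, an endocytic lectin, and Folr2 encodes folate receptor beta. Ccl8 is the only secreted ligand among them, a chemokine that acts on CCR8 in the mouse. Lyve1 and Stab1 are also genes of lymphatic and sinusoidal endothelium. In bulk samples, fewer cells that make a gene and less RNA per cell cannot be told apart.

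On mm10, with the GENCODE M21 annotation, the genes lie on 5 chromosomes. Lyve1 (ENSMUSG00000030787) is at chr7:110850607-110863239 on the minus strand and Folr2 (ENSMUSG00000032725) at chr7:101839988-101857194 on the same strand. Cd163 (ENSMUSG00000008845) is at chr6:124304656-124330527 and Mrc1 (ENSMUSG00000026712) at chr2:14229392-14332057, both on the plus strand. Ccl8 (ENSMUSG00000009185) is at chr11:82115185-82116799 on the plus strand, and Stab1 (ENSMUSG00000042286) at chr14:31139013-31168641 on the minus strand. Annotated genes on the opposite strand overlap Folr2 and Stab1, namely Gm10602 and Gm45319, and Nt5dc2. Gm10602 averaged 5.64 CPM and Nt5dc2 13.6 CPM over the 18 libraries, and without strand information reads in the overlaps cannot be assigned.

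Promoter windows from RefSeq (GRCm38.p6, 250 bases before to 50 after a start site) were found for 5 of the 6 genes, all but Lyve1. Those shown are the pair of alternative Folr2 promoters, because the transcript counts separate them, and those of Ccl8 and Stab1, the 2 genes that rose in a comparison tested further on. Sequences run 5′ to 3′ on the gene's strand. Capitals mark the MAF half-site TGCTGA or its reverse TCAGCA, the AP-1 element TGANTCA and the TATA box TATAAA.
Folr2 proximal, chr7:101845282-101845581, minus strand: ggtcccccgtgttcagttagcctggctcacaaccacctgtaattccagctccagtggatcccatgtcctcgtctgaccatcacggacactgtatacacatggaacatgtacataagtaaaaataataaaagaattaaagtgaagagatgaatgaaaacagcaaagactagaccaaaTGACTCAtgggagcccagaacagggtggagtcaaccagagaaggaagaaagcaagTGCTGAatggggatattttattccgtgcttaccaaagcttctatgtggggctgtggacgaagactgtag
Folr2 distal, chr7:101857141-101857440, minus strand: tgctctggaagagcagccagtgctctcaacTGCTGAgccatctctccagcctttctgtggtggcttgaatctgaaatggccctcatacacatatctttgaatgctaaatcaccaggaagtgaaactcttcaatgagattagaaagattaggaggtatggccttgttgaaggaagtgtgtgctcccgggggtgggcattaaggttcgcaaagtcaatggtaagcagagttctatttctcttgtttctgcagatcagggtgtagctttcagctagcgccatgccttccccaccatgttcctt
Ccl8, chr11:82114935-82115234, plus strand: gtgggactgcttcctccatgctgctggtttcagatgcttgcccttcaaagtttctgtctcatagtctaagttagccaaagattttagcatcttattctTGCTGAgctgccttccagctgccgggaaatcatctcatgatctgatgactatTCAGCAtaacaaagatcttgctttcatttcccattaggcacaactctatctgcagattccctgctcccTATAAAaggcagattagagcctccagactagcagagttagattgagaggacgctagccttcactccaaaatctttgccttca
Stab1, chr14:31168592-31168891, minus strand: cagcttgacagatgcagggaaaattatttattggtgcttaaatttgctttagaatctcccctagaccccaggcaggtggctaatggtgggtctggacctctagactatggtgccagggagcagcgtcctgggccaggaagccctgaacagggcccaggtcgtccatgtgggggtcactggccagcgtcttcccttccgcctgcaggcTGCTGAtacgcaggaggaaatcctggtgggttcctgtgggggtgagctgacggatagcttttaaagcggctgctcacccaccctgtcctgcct

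Positions are those of a motif's first printed base, counted from the start site. Folr2 has the half-site at -19 and the AP-1 element at -74 in the proximal window, and the half-site at -220 in the distal one. Ccl8 has the half-site at -152, its reverse at -100 and the TATA box at -32, and Stab1 has the half-site at -43. The Cd163 and Mrc1 windows held none of these motifs. Among 32851 promoter windows of the same length, 19.5% hold TGCTGA and 7.81% hold TGANTCA on either strand, and 8.32% hold TATAAA on the gene's strand. The PU.1 core GAGGAAGT, the glucocorticoid response element, the STAT element TTCNNNGAA and the STAT6 element, searched on both strands, gave no match in any of the 6 windows. They are held by 3.2%, 0.0396%, 8.3% and 6.95% of all windows. A match is a run of letters, not a measured site.

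The transcript table places Folr2 on the proximal start. Transcript Folr2-201 held 87.6% to 91.9% of the gene's estimated counts in every library and Folr2-202, which also starts in the proximal window, 4.93% to 7.74%. Folr2-203, the transcript that starts in the distal window, held at most 0.57% of the counts in any library and at most 6.71 counts. The main protein-coding transcript held at least 95.6% of Lyve1 counts and 97.6% of Mrc1 counts, and Ccl8 has 1 transcript. Cd163 was divided between Cd163-201 at 49.6% to 73.4%, Cd163-202 at 14.3% to 35.4% and a retained-intron model at 10.8% to 17.5%.

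The sort was checked by Timd4. Its level was 622 to 886 CPM in the no-tumor Tim-4high libraries, 280 to 320 CPM (isotype) and 169 to 219 CPM (anti-Tim-4), against 9.13 to 108.5 CPM over the 9 Tim-4low libraries. CPM values are counts scaled to library size with TMM factors. Macrophage markers such as Csf1r and Lyz2 summed to 17470 to 44731 CPM over 8 genes. Endothelial markers, 10 of 15 in the table, summed to 3.58 to 15.7 CPM. Among them Cdh5 reached at most 2.04 CPM, Prox1 7.77 CPM and Flt4 10.9 CPM. Of 5 endothelial markers tested, 3 were called lower and 1 higher in no-tumor Tim-4low than Tim-4high cells, against 11.8% and 12.8% of all genes. With isotype 2 were called lower and none higher, against 12.9% and 11.3% of all genes. The part of such cells in the levels of Lyve1 and Stab1 was not tested. Monocyte markers, 8 genes, summed to 1557 to 1894 CPM in no-tumor Tim-4low and 197 to 340 CPM in no-tumor Tim-4high libraries. With isotype they summed to 3947 to 5229 CPM (Tim-4low) and 7817 to 7981 CPM (Tim-4high), and with anti-Tim-4 to 3299 to 11788 and 3859 to 11988 CPM. Of these, Chil3 averaged 6528 ± 4573 CPM in anti-Tim-4 Tim-4low and 25.6 ± 25.5 CPM in no-tumor Tim-4low libraries (SD, n = 3). Ccr2 averaged 669 ± 149 and 1469 ± 286 CPM there. With isotype, Ccr2, Vcan and Ly6c2 were called higher in Tim-4low cells, although the sum was lower.

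Several libraries stood apart for these genes. Isotype Tim-4high library 2 was at least 2 times as high as the next highest of its group for all 6 genes, by 2.09 times for Folr2 up to 2.84 times for Lyve1, while its Timd4 was 0.92 times the next highest. Of 16581 genes tested with a value in the other libraries, 0.989% were so high there. The ratios of anti-Tim-4 to isotype in Tim-4high cells are therefore given with and without that library, and other values keep it unless stated. Library 1 of both no-tumor populations was low: it was at most 1/1.5 of both others for 4 of the 5 members other than Ccl8 in Tim-4high and 3 of 5 in Tim-4low, against 5.42% and 3.95% of genes. Those libraries also had the most B cell marker RNA, 473 CPM in Tim-4high and 1606 CPM in Tim-4low, against 124 to 222 CPM in the other no-tumor libraries, and the most mast cell marker RNA, 88.0 and 138 CPM against 3.88 to 11.0 CPM. In no-tumor Tim-4low library 1, Timd4 was 108.5 CPM against 9.52 and 9.13 CPM in the other 2, and Stab1 was the highest of its group. Without both libraries numbered 1, the same counts of the 6 genes were called in the tested comparisons, 2 and 5.

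**Figure D1:**
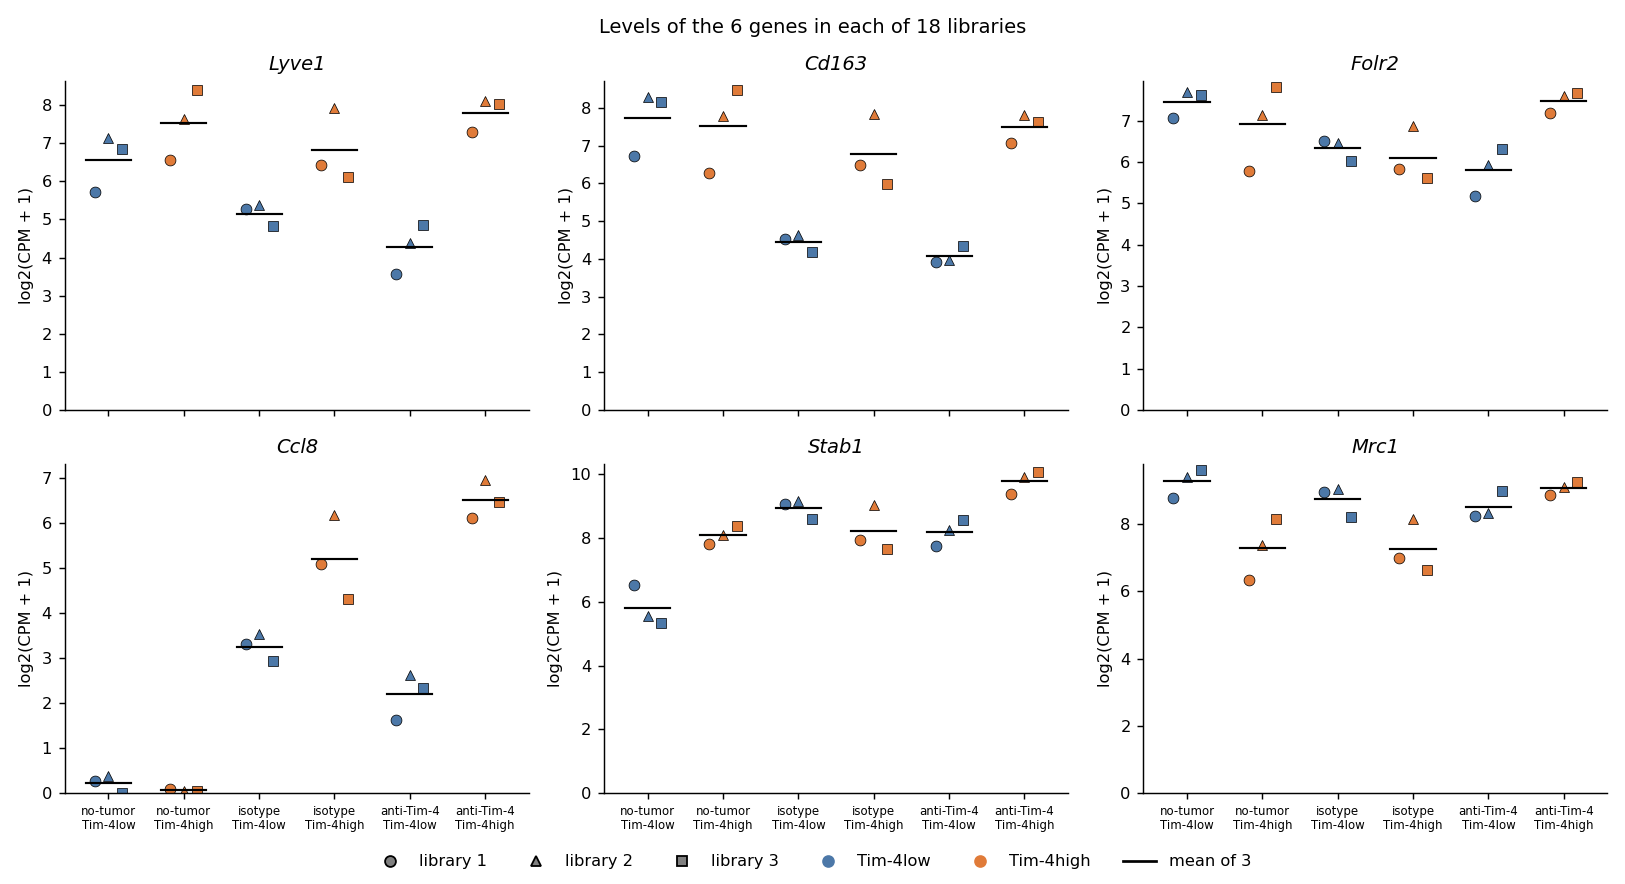
Level of each gene, as log2(CPM + 1) on a linear axis, in every library; circles, triangles and squares are libraries 1, 2 and 3, blue is Tim-4low, orange is Tim-4high and the line is the mean of 3. Ccl8 lies at the bottom of its panel in all 6 no-tumor libraries, and the triangle of isotype Tim-4high lies above its group in every panel.

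The hyaluronan receptor gene Lyve1 had its 3 highest group means in Tim-4high cells. For isotype Tim-4high this rests on library 2, since its other libraries were below the no-tumor Tim-4low mean of 102 CPM. Libraries 1, 2 and 3 gave 51.5, 139 and 114 CPM in no-tumor Tim-4low. In no-tumor Tim-4high they gave 93.2, 198 and 334 CPM. In isotype mice the libraries gave 37.4, 40.2 and 27.4 CPM (Tim-4low) and 85.8, 243 and 68.1 CPM (Tim-4high). With anti-Tim-4 they gave 10.9, 20.0 and 28.1 CPM (Tim-4low) and 155, 276 and 258 CPM (Tim-4high). The 3 Tim-4high groups and no-tumor Tim-4low overlapped in order of level, from 230 CPM on average in anti-Tim-4 Tim-4high down to 102 CPM. Both tumor-bearing Tim-4low groups lay below all of these without overlap.

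Cd163, the haemoglobin scavenger gene, divided the 18 libraries into a high and a low part. No-tumor Tim-4low libraries gave 105, 311 and 285 CPM and no-tumor Tim-4high libraries 75.9, 220.3 and 356 CPM. Isotype Tim-4low libraries gave 22.2, 23.8 and 17.0 CPM and isotype Tim-4high 88.3, 226 and 62.5 CPM. Anti-Tim-4 Tim-4low libraries gave 14.2, 14.8 and 19.1 CPM and anti-Tim-4 Tim-4high 132, 224 and 195 CPM. All 6 tumor-bearing Tim-4low libraries were under 24 CPM, and all 12 others above 62 CPM. Unlike Lyve1, Cd163 had almost equal means in the 2 no-tumor populations, 233 ± 112 CPM (Tim-4low) and 217 ± 140 CPM (Tim-4high; SD, n = 3).

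Folr2, the folate receptor gene, gave no group that stood clear of the next. In no-tumor mice it gave 133, 206 and 195 CPM (Tim-4low) and 53.8, 141 and 227 CPM (Tim-4high). With isotype the values were 90.7, 87.4 and 64.5 CPM (Tim-4low) and 55.5, 116 and 47.9 CPM (Tim-4high). With anti-Tim-4 they were 35.2, 60.2 and 78.7 CPM (Tim-4low) and 145, 194 and 203 CPM (Tim-4high). Every group overlapped its neighbours in the order of means, from anti-Tim-4 Tim-4high at 181 CPM down to anti-Tim-4 Tim-4low at 58.0 CPM. Scaled per transcript length, Folr2 had the highest mean level of the 6 genes over the 18 libraries, 230 TPM, a count scaled to transcript length and depth, followed by Mrc1 at 145 TPM and Stab1 at 138 TPM, Ccl8 at 88.0 TPM, Lyve1 at 86.1 TPM and Cd163 at 63.5 TPM.

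Ccl8, the chemokine gene, was near 0 without a tumor. The no-tumor Tim-4low libraries held 6, 10 and 0 estimated counts and the Tim-4high ones 2, 1 and 1, none above 0.313 CPM. The library with 0 counts allows up to 0.0827 CPM by counting error alone. Isotype Tim-4low libraries gave 8.91, 10.5 and 6.62 CPM and isotype Tim-4high 33.0, 70.7 and 18.8 CPM. Anti-Tim-4 Tim-4low libraries gave 2.08, 5.14 and 4.07 CPM and anti-Tim-4 Tim-4high 67.9, 123 and 87.2 CPM. In both tumor-bearing conditions every Tim-4high library was above every Tim-4low library.

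Stab1, the stabilin-1 gene, was lowest in no-tumor Tim-4low cells. Those libraries gave 91.9, 46.5 and 39.04 CPM, against 222, 274 and 329 CPM in no-tumor Tim-4high. Isotype Tim-4low gave 541, 574 and 383 CPM and isotype Tim-4high 244, 526 and 199 CPM. Anti-Tim-4 Tim-4low gave 213, 302 and 376 CPM and anti-Tim-4 Tim-4high 671, 964 and 1076 CPM. The lowest and the highest group stood clear of the other 4, which overlapped in order. Retained-intron models held 15.6% of Stab1 counts on average in anti-Tim-4 Tim-4high and 32.4% in no-tumor Tim-4low libraries, and their share was higher on average in Tim-4low than in Tim-4high cells in each condition.

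Mrc1, the mannose receptor gene, had its highest group mean in no-tumor Tim-4low cells. These gave 440, 675 and 780.4 CPM, and no-tumor Tim-4high gave 79.9, 164 and 285 CPM. Isotype Tim-4low gave 498, 520.3 and 297 CPM and isotype Tim-4high 125, 286 and 98.9 CPM. Anti-Tim-4 Tim-4low gave 301, 323 and 502 CPM and anti-Tim-4 Tim-4high 467, 547 and 608 CPM. The no-tumor and isotype Tim-4high groups, at 176 and 170 CPM on average, stood below the other 4 groups without overlap. The microRNA gene Mir511 lies within Mrc1 on the same strand and was not in the count table.

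The 1st tested comparison asked how Tim-4low and Tim-4high macrophages differ in mice without a tumor. 2 of the 6 genes were called in edgeR's quasi-likelihood test, 1 in each direction, against 24.6% of all 16609 genes tested. Mrc1 was higher in Tim-4low cells, at 632 ± 175 against 176 ± 103 CPM (SD, n = 3), a log2 fold change of 1.84 ± 0.44 (SE; adjusted p = 0.00573). Stab1 was lower, at 59.2 ± 28.6 against 275 ± 53.7 CPM, a log2 fold change of -2.22 ± 0.38 (adjusted p = 0.000541). For both, the 2 groups did not overlap, as for 34.9% of all genes tested.

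The other 4 genes did not pass the test between the no-tumor populations. Lyve1 had a log2 fold change of -1.04 ± 0.52 (adjusted p = 0.171), Cd163 of 0.10 ± 0.51 (adjusted p = 0.917) and Folr2 of 0.34 ± 0.42 (adjusted p = 0.623). Ccl8 was too close to 0 in both groups for a fold (adjusted p = 0.571). Same-numbered libraries of a condition were taken as pairs, though the labels name no mouse, and the calls above come from a fit without pairing. With library number as a block Lyve1 was called lower in Tim-4low cells at -0.98 (adjusted p = 0.0135), and it was lower in 3 of 3 pairs. Cd163 and Folr2 turned to log2 fold changes of -0.31 and -0.06 without no-tumor Tim-4high library 1, and Cd163 to -0.17 and -0.07 without no-tumor Tim-4low libraries 2 and 3.

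The 2nd tested comparison set Tim-4low cells of anti-Tim-4-treated, tumor-bearing mice against Tim-4low cells of mice without a tumor. The set divided: 3 genes fell, 2 rose and Mrc1 did not pass. These 5 calls among 6 stand beside 46.7% of all genes tested, with 23.8% higher and 22.9% lower. Both comparisons use the no-tumor Tim-4low libraries.

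Cd163 fell furthest, from 233 ± 112 to 16.1 ± 2.69 CPM (SD, n = 3), a log2 fold change of -3.86 ± 0.58 (SE; adjusted p = 7.61e-05). Lyve1 fell from 102 ± 45.2 to 19.7 ± 8.62 CPM, by -2.37 ± 0.55 on the log2 scale (adjusted p = 0.00247). Folr2 fell from 178 ± 39.1 to 58.0 ± 21.8 CPM, by -1.62 ± 0.44 (adjusted p = 0.00672). For these 3 receptors, every anti-Tim-4 library was below every no-tumor library, and 53.2% of all genes tested had no overlap in one direction or the other.

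Ccl8 rose from 0.174 ± 0.159 to 3.76 ± 1.55 CPM, a log2 fold change of 4.46 ± 0.75 (adjusted p = 0.000202) that rests on the 6, 10 and 0 counts of the no-tumor libraries. Stab1 rose from 59.2 ± 28.6 to 297 ± 81.8 CPM, by 2.33 ± 0.38 (adjusted p = 0.000159). Mrc1 stood at 375 ± 110 against 632 ± 175 CPM, a log2 fold change of -0.75 ± 0.43 (adjusted p = 0.161), with overlapping libraries. In the same comparison 7 of 8 monocyte markers were higher and 1 lower, and all 9 tested mesothelial and fibroblast markers were higher, from sums of 0.276 to 0.814 CPM to 15.3 to 26.4 CPM. All 6 B cell markers were lower, with a median log2 fold change of -5.45, as were 4 of 5 tested mast cell markers. Much of the size of both rests on no-tumor Tim-4low library 1. It held 1606 CPM of B cell markers against 169 and 222 CPM in the other 2, and 138 CPM of mast cell markers against 3.88 and 5.57 CPM. Of neutrophil markers 4 of 7 were higher, and of dendritic cell markers 3 of 8 were lower and 1 higher. The part of such cells in these results was not tested.

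**Figure D2:**
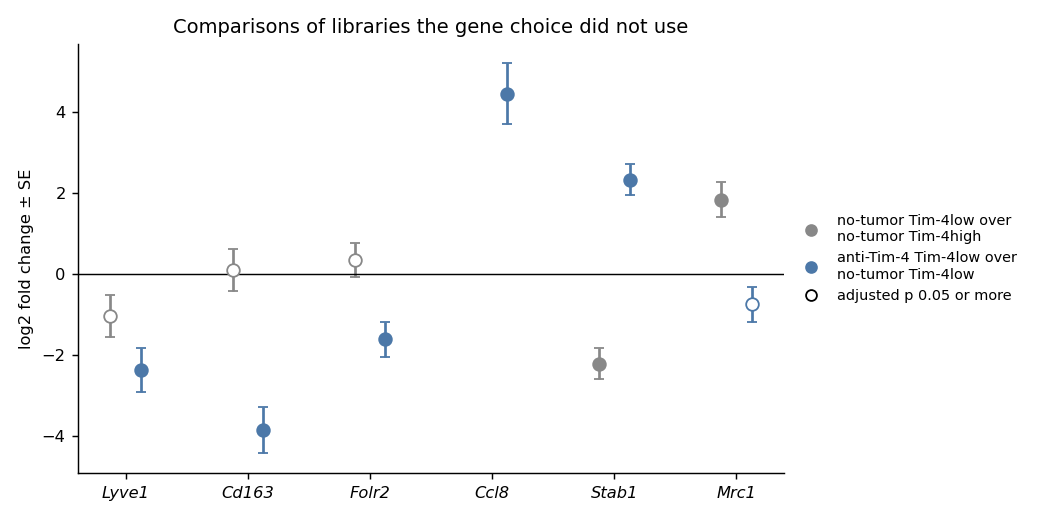
Log2 fold change ± SE of each gene in the 2 comparisons of libraries that the choice of genes did not use; filled points have an adjusted p under 0.05. Ccl8 is not drawn for the no-tumor populations, where it is near 0 counts, and Cd163, Lyve1 and Folr2 lie below 0 and Ccl8 and Stab1 above it in the anti-Tim-4 comparison.

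The isotype libraries, which entered the choice of genes, gave the same direction for these 5 genes in Tim-4low cells against no-tumor Tim-4low cells. Described without a test, the log2 fold changes were -3.48 ± 0.57 for Cd163, -1.54 ± 0.53 for Lyve1, -1.14 ± 0.43 for Folr2, 5.67 ± 0.70 for Ccl8 and 3.08 ± 0.39 for Stab1 (SE), and -0.53 ± 0.42 for Mrc1. The libraries overlapped for Mrc1 alone among the 6, and 58.0% of all genes tested had no overlap there. Of all genes tested, 49.8% were called in either direction, 25.2% higher and 24.6% lower. This comparison shares the no-tumor libraries with the one above. Between the antibodies, anti-Tim-4 Tim-4low cells had lower means than isotype Tim-4low cells for all 6 genes. The difference ran from -0.23 ± 0.42 for Mrc1 to -1.21 ± 0.45 for Ccl8 on the log2 scale, and the libraries of 2 of the 6 genes, Ccl8 and Stab1, did not overlap. Of all 16609 genes tested 2986, or 18%, had no overlap, and 0.325% were called in either direction.

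Tim-4high cells were described in the same way against Tim-4high cells without a tumor. Isotype Tim-4high means were lower for Lyve1, Cd163 and Folr2, at log2 fold changes of -0.66 ± 0.52, -0.79 ± 0.52 and -0.94 ± 0.43, near equal for Stab1 at 0.23 ± 0.36 and Mrc1 at -0.05 ± 0.42, and overlapped for all 5, where 57.5% of all genes tested had no overlap and 51.5% were called, 27.3% higher. Those isotype values include library 2. Without it Lyve1 did not overlap, at 85.8 and 68.1 CPM against at least 93.2 CPM without a tumor. Over the alternatives run, these log2 fold changes lay between -1.45 and -0.14 for Lyve1, -1.54 and -0.24 for Cd163 and -1.45 and -0.41 for Folr2. For Stab1 they lay between -0.32 and 0.48 and for Mrc1 between -0.66 and 0.48. Anti-Tim-4 Tim-4high means were 0.14 ± 0.51 for Lyve1, -0.24 ± 0.51 for Cd163 and 0.36 ± 0.42 for Folr2, with overlap. Stab1 at 1.72 ± 0.37 and Mrc1 at 1.62 ± 0.43 were above the no-tumor Tim-4high range without overlap. In that comparison 60.6% of all genes tested had no overlap and 52.9% were called, 27.4% higher and 25.5% lower. Ccl8 was 40.8 ± 26.8 CPM with isotype and 92.6 ± 27.8 CPM with anti-Tim-4, against at most 0.0747 CPM without a tumor.

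The contrast that chose the genes was anti-Tim-4 against isotype, in which 7.97% of all genes tested were called between the Tim-4high groups. Every anti-Tim-4 Tim-4high library was above every isotype Tim-4high library for 3 of the 6 genes, Folr2, Stab1 and Mrc1, where 20.0% of all genes tested were. It was above every isotype Tim-4low library for 5 of 6, all but Mrc1, where 19.3% were. Only Folr2 and Stab1 were clear of all 6 isotype libraries, against 6.27% of genes, so for the other 4 the choice rests on group means.

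Just outside, the highest isotype library was 226 CPM for Cd163 against 132 to 224 CPM with anti-Tim-4, 243 against 155 to 276 CPM for Lyve1, 70.7 against 67.9 to 123 CPM for Ccl8 and 520.3 against 467 to 608 CPM for Mrc1. Just inside, it was 116 against 145 to 203 CPM for Folr2 and 574 against 671 to 1076 CPM for Stab1. The first 3 of these overlaps come from isotype Tim-4high library 2. Without it, all 6 genes were clear of isotype Tim-4high, but that library was left out because these genes were high in it. The matching share of all genes was not counted.

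Mean ratios of anti-Tim-4 to isotype in Tim-4high cells were 3.18 for Mrc1, 2.80 for Stab1, 2.47 for Folr2, 2.27 for Ccl8, 1.73 for Lyve1 and 1.46 for Cd163. Without isotype Tim-4high library 2 they were 4.83, 4.08, 3.49, 3.57, 2.98 and 2.43. These rest on libraries 1 and 3 of that group, and library 3 was its lowest for all 6 genes. The authors' deposited table gave folds of 3.18 for Mrc1, 2.80 for Stab1, 2.47 for Folr2, 2.27 for Ccl8, 1.73 for Lyve1 and 1.46 for Cd163.

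The position of Tim-4low against Tim-4high cells changed between conditions for several of the genes. Differences between libraries of the same number, in log2(CPM + 1), are descriptions here, since the choice used the isotype and anti-Tim-4 Tim-4high libraries. Lyve1 was lower in Tim-4low cells in 9 of 9 pairs, by -0.51 to -1.54 without a tumor, -1.18 to -2.57 with isotype and -3.15 to -3.72 with anti-Tim-4. Cd163 was lower in Tim-4low cells in 3 of 3 pairs in both tumor-bearing conditions, and higher in 2 of 3 without a tumor. Ccl8, too low to compare without a tumor, was lower in Tim-4low cells by -1.38 to -2.64 with isotype and -4.12 to -4.48 with anti-Tim-4.

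Folr2 was lower in Tim-4low cells in 3 of 3 pairs with anti-Tim-4, by -1.36 to -2.01, while 2 of 3 pairs were higher both without a tumor and with isotype. Stab1 was lower in Tim-4low cells without a tumor and with anti-Tim-4, and higher with isotype by 1.15, 0.13 and 0.94. Mrc1 was higher in Tim-4low cells by 2.45, 2.04 and 1.45 without a tumor and 1.99, 0.86 and 1.58 with isotype, and lower by -0.63, -0.76 and -0.28 with anti-Tim-4. With anti-Tim-4, then, all 6 genes were lower in Tim-4low cells in 3 of 3 pairs, as were 24.1% of all genes tested, and the libraries of these pairs include those that chose the genes. Fitted log2 fold changes ran from -0.53 ± 0.42 for Mrc1 to -4.63 ± 0.47 for Ccl8. Of all genes tested 0.849% were called lower and 1.39%, or 231 genes, in either direction, and with library number as a block 1909 genes.

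**Figure D3:**
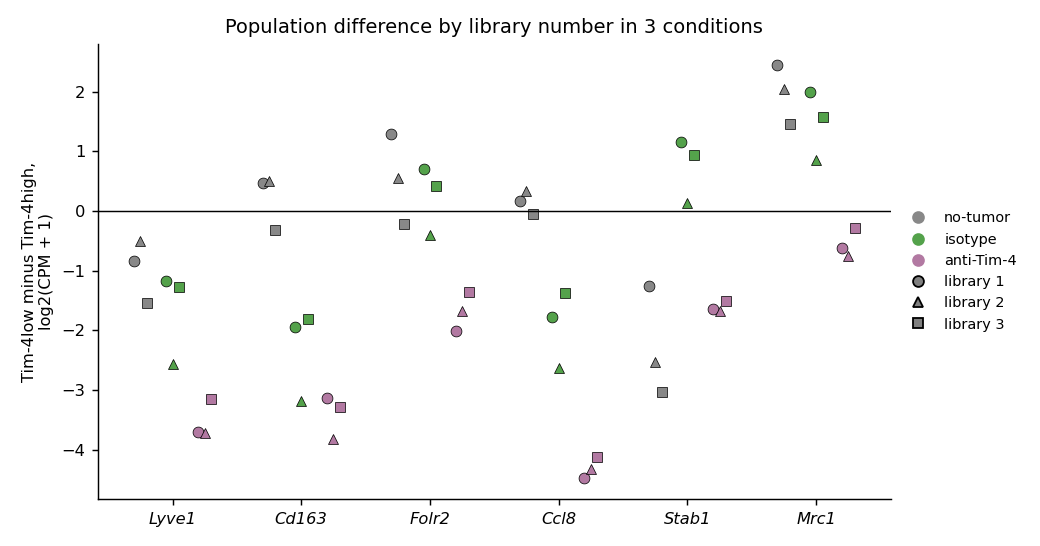
Tim-4low minus Tim-4high difference in log2(CPM + 1) for each gene, by library number (shape) and condition (grey no-tumor, green isotype, purple anti-Tim-4). All 18 purple points lie below 0; the green points of Stab1 and the grey and green points of Mrc1 lie above it.

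Within the set, profiles over the 18 libraries were not one pattern. As root-mean-square distance between scaled log2(CPM + 1) profiles, Lyve1 and Cd163 were nearest at 0.365, then Cd163 and Folr2 at 0.624, Lyve1 and Folr2 at 0.663, Ccl8 and Stab1 at 0.716 and Folr2 and Mrc1 at 0.87. All other pairs were at 1.216 or more, up to 1.505 for Cd163 and Stab1. The median distance of 8878 genes of at least 10 CPM from a single member lay between 1.254 for Ccl8 and 1.428 for Cd163. From the mean profile of the set it was 1.347.

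Distances use all 18 libraries, those of the choice included, so a near gene tends to share the level differences that chose the set. The gene nearest to the mean profile was Cbr2, a carbonyl reductase gene, at 0.518, with 124 ± 31.9 CPM in anti-Tim-4 Tim-4high and 41.2 ± 22.3 CPM in isotype Tim-4high libraries (SD, n = 3). Gas6, which encodes a bridging ligand for apoptotic cells, followed at 0.566, with 21.5 ± 1.69 CPM in anti-Tim-4 Tim-4high and 2.74 ± 0.709 CPM in anti-Tim-4 Tim-4low. The next were Adam15 at 0.589, Hsd17b4, Lmbrd1, Cd151, Mgat1, Pik3c2a, Phldb1 and Rnft1, up to 0.727. Adam15 moved little, with group means between 511 and 585 CPM. Gas6 was also the nearest gene to Lyve1, at 0.23, and to Cd163, at 0.321. Cbr2 was nearest to Folr2 at 0.281, the biliverdin reductase gene Blvrb to Stab1 at 0.336, Tldc1 to Ccl8 at 0.333 and Ap2a2, of a clathrin adaptor, to Mrc1 at 0.334.

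Genes written as companions of the set, 24 genes of the same resident type, were called lower in Tim-4low than in Tim-4high cells more often than higher in each condition. Between the no-tumor populations 10 of 24 were lower and 2 higher, against 11.8% and 12.8% of all genes tested, with a median log2 fold change of -0.33 where all genes had 0.02. The complement gene C4b was 2796 ± 647 CPM against 10535 ± 879 CPM (SD, n = 3), a log2 fold change of -1.91 ± 0.31 (SE; adjusted p = 0.000319). Igf1, a growth factor gene, at -1.98 ± 0.36, and the endothelin receptor gene Ednrb, at -1.57 ± 0.29, were lower as well, as was Ltc4s, of leukotriene synthesis, at -0.42 ± 0.07. With library number as a block, 4 companions were higher instead of 2, where 3923 of all genes were called in either direction against 4086.

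In anti-Tim-4 Tim-4low against no-tumor Tim-4low cells, 15 of the 24 companions fell and 2 rose, where 22.9% and 23.8% of all genes did, with a median of -1.25 against -0.03 for all genes. Those shares stand behind every list count of this comparison. Pltp, which encodes a phospholipid transfer protein, fell from 2381 ± 581 to 391 ± 98.9 CPM, by -2.61 ± 0.26 on the log2 scale (adjusted p = 1.94e-06). The lectin gene Cd209f fell from 18.8 ± 9.06 to 0.0629 ± 0.0548 CPM. The platelet factor 4 gene Pf4 fell by -2.36 ± 0.34 and the lectin gene Clec10a by -1.33 ± 0.17.

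With isotype, 10 companions were lower and 2 higher in Tim-4low than in Tim-4high cells, where 12.9% and 11.3% of all genes were, with a median of -0.93 against 0.01. Pf4 at -1.88 ± 0.33, C4b at -1.72 ± 0.31 and Ednrb at -1.60 ± 0.29 were lower, and Pltp at 1.59 ± 0.26 was higher. With the block, 6 companions were higher, where the block called 5716 of all genes in either direction against 4011 without it. With anti-Tim-4, 3 were lower and none higher, against 0.849% and 0.542% of all genes, namely Gas6 at -2.97 ± 0.52, Fcgrt, of the neonatal Fc receptor, at -0.89 ± 0.13, and the selenoprotein P gene Selenop at -0.79 ± 0.17. The call of Selenop was lost without any of the 6 libraries (adjusted p from 0.0603 to 0.184). That of Gas6 was lost without anti-Tim-4 Tim-4low library 1 (adjusted p = 0.0519), Tim-4low library 2 (0.063) or Tim-4high library 2 (0.0689). With the block this became 14 lower and 2 higher, where the block called 1909 of all genes in either direction against 231 without it.

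In Tim-4high cells, 4 of the 24 companions were higher with anti-Tim-4 than with isotype and none lower, where 4.3% and 3.67% of all genes were, and their median was -0.06. They were Pltp, from 134 ± 34.9 to 366 ± 48.5 CPM (log2 fold change 1.45 ± 0.25, adjusted p = 0.00924), Fcgrt at 0.66 ± 0.13, the scavenger receptor gene Cd36 at 1.26 ± 0.32 and Cbr2 at 1.59 ± 0.46. The transcription factor gene Maf, a regulator of resident macrophages, rose from 117 ± 23.3 to 273 ± 42.9 CPM, by 1.22 ± 0.22 (adjusted p = 0.00947). The calls of Pltp, Fcgrt, Cd36, Cbr2 and Maf were all lost without isotype Tim-4high library 1 or without anti-Tim-4 Tim-4high library 3, where adjusted p lay between 0.0619 and 0.168. Without isotype Tim-4high library 3 those of Fcgrt (adjusted p = 0.0583), Cd36 (0.116) and Cbr2 (0.178) were lost, and without anti-Tim-4 Tim-4high library 2 those of Cd36 (0.0615) and Cbr2 (0.125). Cbr2 was also not called with no filter on low counts (adjusted p = 0.0522) or with robust estimation (0.0656). The count over all genes went from 1324 to 10, 31, 203 and 409 without these 4 libraries in turn.

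Among 17 regulators, Maf was also higher in Tim-4low than in Tim-4high cells with isotype, at 285 ± 9.39 against 117 ± 23.3 CPM (1.29 ± 0.22, adjusted p = 0.000759). It was 265 ± 82.3 against 208 ± 18.7 CPM in anti-Tim-4 Tim-4low against no-tumor Tim-4low cells (adjusted p = 0.198). In that comparison 5 of 17 regulators rose and 2 fell, a total below the share of all genes called, 46.7%. The interleukin-4 receptor gene Il4ra rose by 1.60 ± 0.12 and the transcription factor gene Irf4 fell by -2.30 ± 0.19. Between the no-tumor populations 4 regulators were higher in Tim-4low cells, Irf4 at 1.33 ± 0.18 among them, and 6 lower, among them Tgfbr1 of the TGF-beta receptor at -0.85 ± 0.11. Of all genes tested, 12.8% were higher and 11.8% lower there.

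For the hyaluronan partners of Lyve1, 7 of 9 genes in the table could be tested. In anti-Tim-4 Tim-4low against no-tumor Tim-4low cells 4 rose and 1 fell, Cd44, the main hyaluronan receptor of leukocytes, from 364 ± 66.9 to 730 ± 117 CPM (1.00 ± 0.13, adjusted p = 1.72e-05) and Layn, another such receptor, by 1.46 ± 0.17. Layn and the hyaluronidase gene Hyal2 were lower in no-tumor Tim-4low than Tim-4high cells, at -1.32 ± 0.17 and -0.79 ± 0.12. Cd44 did not pass there, at 0.34 ± 0.13 (adjusted p = 0.0616), but was called higher with DESeq2 (adjusted p = 0.0384) and without no-tumor Tim-4low library 2 (adjusted p = 0.0381). Lyve1 fell where Cd44 and Layn rose.

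The heme and haemoglobin genes around Cd163 rose in anti-Tim-4 Tim-4low against no-tumor Tim-4low cells for 9 of 15 tested genes and fell for 1. Ferritin light chain Ftl1 rose from 1940.0 ± 122 to 3733 ± 458 CPM (0.94 ± 0.10, adjusted p = 2.63e-06), ferritin heavy chain Fth1 by 0.86 ± 0.13, heme oxygenase Hmox1 by 1.35 ± 0.27 and Blvrb by 0.67 ± 0.08. Cd163 itself fell there. Between the no-tumor populations 5 were lower in Tim-4low cells and 1 higher, 2 with the block, with the scavenger gene Cd5l at -1.82 ± 0.39 and Blvrb at -0.63 ± 0.08. Of all genes tested, 11.8% were lower and 12.8% higher there, and the block called 3923 genes in all against 4086 without it. Hmox1 was 225 ± 59.0 against 162 ± 48.1 CPM (adjusted p = 0.223), and was called higher with the block (adjusted p = 0.00431).

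Of the folate genes around Folr2, 6 of 14 tested rose and 3 fell in anti-Tim-4 Tim-4low against no-tumor Tim-4low cells, with a median of 0.15, where 23.8% of all genes rose and 22.9% fell. Tyms, the thymidylate synthase gene, rose by 1.08 ± 0.13. Between the no-tumor populations 2 were higher in Tim-4low cells and 2 lower, against 12.8% and 11.8% of all genes. The mitochondrial folate enzyme gene Mthfd2 was 23.0 ± 4.93 against 5.58 ± 1.52 CPM there (2.05 ± 0.18, adjusted p = 1.31e-06). The other folate receptor gene, Folr1, was below the filter, at no more than 0.46 CPM in any library.

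Of the chemokine neighbours and receptors around Ccl8, 4 of 8 tested rose and 2 fell in that comparison. Ccl12 rose from 0.0993 ± 0.0574 to 4.05 ± 0.666 CPM (5.24 ± 0.51, adjusted p = 1.21e-06) and Ccl2 from 10.2 ± 7.56 to 29.5 ± 6.09 CPM (1.52 ± 0.54, adjusted p = 0.0299), a call lost without no-tumor Tim-4low library 1 or 2 or anti-Tim-4 Tim-4low library 2. Ccl7 stood at 8.30 ± 3.16 against 1.95 ± 2.37 CPM (adjusted p = 0.0566). The monocyte receptor gene Ccr2 fell by -1.14 ± 0.35 (adjusted p = 0.0144), a call lost without no-tumor Tim-4low library 3 or anti-Tim-4 Tim-4low library 1 or 2. Between the no-tumor populations Ccr2 was 1469 ± 286 against 46.6 ± 23.6 CPM. Ccr8, for the receptor of Ccl8, was below the filter, at no more than 0.672 CPM.

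Of the lectin genes around Mrc1, 5 of 11 tested were higher and 3 lower in no-tumor Tim-4low than Tim-4high cells. Of all genes tested, 12.8% were higher and 11.8% lower there. The macrophage galactose lectin gene Mgl2 was 129 ± 63.6 against 6.76 ± 4.21 CPM (4.25 ± 0.53, adjusted p = 3.9e-05), and Colec12, a scavenger lectin gene, was lower at -2.44 ± 0.33. In anti-Tim-4 Tim-4low against no-tumor Tim-4low cells 3 rose and 4 fell, with Clec4n, the dectin-2 gene, at 2.87 ± 0.30 and Cd209a, also a marker of dendritic cells, at -4.57 ± 0.59. Of 12 glucocorticoid-induced genes, 3 rose and 4 fell there, with Anxa1 at 0.91 ± 0.12 and Zbtb16 at -2.90 ± 0.25. Between the no-tumor populations 2 of these 12 were lower in Tim-4low cells and none higher, against 11.8% and 12.8% of all genes. They were Klf9 at -0.88 ± 0.10 and Sesn1 at -0.66 ± 0.12, and 5 were lower with the block. The block called 3923 of all genes in either direction there, against 4086 without it.

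**Figure D4:**
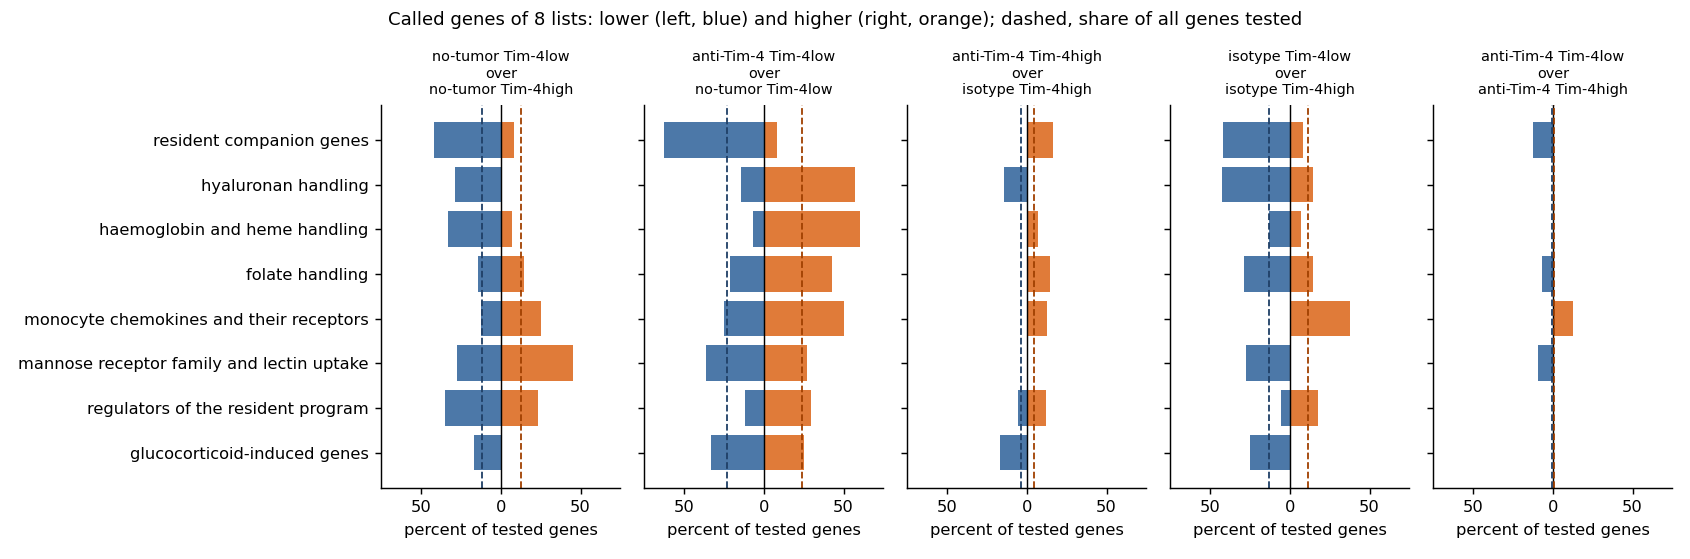
Percent of the tested genes of each list that were called higher (orange, right) or lower (blue, left) at an adjusted p under 0.05 in 5 comparisons; dashed lines are the same shares over all 16609 genes tested. Companion genes reach further left than the dashed line in 4 of the 5 panels, all but anti-Tim-4 against isotype in Tim-4high cells, where they lie on the right.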

How the data were processed

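Values for genes and transcripts are the authors' estimated counts, as deposited. STAR, DESeq2 and mm10 are named in the submitters' processing notes, and for versions, quantifier, annotation and strand the entry is: not given in the sources used here. For 2 comparisons the authors deposited p-values with FDR, a signed linear fold (a score) and normalized signal columns, the last not used here. The 6 genes, the lists of other genes and the comparisons were chosen with earlier results of these data known.

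Estimated counts were rounded. filterByExpr kept 16609 of 23511 genes. With TMM factors, all 18 libraries entered a single edgeR 4.0.16 quasi-likelihood fit in R 4.3.3. A call means a p under 0.05 after Benjamini-Hochberg adjustment over every gene tested. TPM used transcript counts over GENCODE M21 lengths. Library totals of 24530070 to 34110392 limit the precision of low genes, and the floor for a count of 0 is 3 counts and covers counting error only. The fit was tested on simulated data.

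Named list genes were up to 4 called genes per list with the smallest p and at least 10 CPM in the higher group, and genes tied to a member by role; which of them to print was decided after their values were seen. Alternatives were RLE factors, plain totals for CPM, no filter, robust estimation, DESeq2 1.42.0, a fit of the compared groups alone, a library number block, and leaving out each library. Library numbers come from the labels, which name no mouse. Within a condition, deviations from the group mean correlated at 0.155 to 0.4885 between same-numbered libraries of the 2 populations (9 of 9 pairs), so the numbers were taken to pair them. Libraries of different number reached 0.2088, for isotype Tim-4low library 1 and isotype Tim-4high library 2. The main fit used no block. Across conditions the numbers do not pair libraries. No library was a copy of another of its group, since replicates differed by a chi-square of 9.663 to 75.22 for each degree of freedom. Printed gene ends are 1 base before the file's stop. Results for some list genes are not reported here.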

Additional observations from a re-analysis of the deposited data

Results flagged for a closer look

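Stab1 and Mrc1 were the 2 genes of the set whose Tim-4low minus Tim-4high difference pointed one way in all 3 pairs of one condition and the other way in all 3 pairs of another. The share of all genes that did so was not counted, so whether the set stands out in this is not known. For Stab1 the mean difference in log2(CPM + 1) with isotype was 3.02 above that without a tumor, and that with anti-Tim-4 was lower than that with isotype by a difference of -2.35. For Mrc1 the mean difference with anti-Tim-4 stood at -2.54 relative to that without a tumor and at -2.03 relative to that with isotype. These differences between conditions were not tested, because each involves libraries used to choose the genes. The smallest pair difference behind them, 0.13 for Stab1 in isotype pair 2, holds isotype Tim-4high library 2, in which all 6 genes were high.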

How the results depend on the processing

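The count of the 6 genes called was 2 between the no-tumor populations and 5 in anti-Tim-4 against no-tumor Tim-4low cells under every alternative run, each left-out library included, except the fit with library number as a block, which gave 3 and 6. In the latter Mrc1 was added at -0.73 (adjusted p = 0.0125), although numbers do not pair libraries across conditions. The block moved the count over all genes by over 1.5 times in 2 of the 5 comparisons. Between the no-tumor populations it called 3923 genes against 4086, and in anti-Tim-4 against no-tumor Tim-4low cells 5457 against 7755. Log2 fold changes without each library in turn ran from -0.31 to 0.66 for Cd163 and from -0.06 to 0.87 for Folr2 between the no-tumor populations, and for Cd163 3 of them, -0.31, -0.17 and -0.07, and for Folr2 1, -0.06, had the other sign. An alternative chosen after seeing the data left out both no-tumor libraries numbered 1 and kept the counts of 2 and 5.

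Counts over all genes depended more on the processing. For anti-Tim-4 against isotype in Tim-4high cells, 1324 genes became 2102 with DESeq2, 2990 in a fit of the 2 groups alone, 2423 with the block and 10 to 1160 with a library left out, the lowest without isotype Tim-4high library 1. For Tim-4low over Tim-4high cells with anti-Tim-4, 231 became 527 with DESeq2, 445 alone, 1909 with the block and 25 to 139 with a library left out. Without a tumor, 4086 became 2472 in a fit of the 2 groups alone, and with isotype 4011 became 2625 to 3485 with a library left out. The cause was not tested where the libraries compared stayed the same. Group means of the 6 genes moved by less than 1 SD under RLE factors and plain totals in 72 of 72 values, and untested fold changes by less than 1 SD in 512 of 522. Of the 10 that moved more, 6 rested on isotype Tim-4high library 2.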
